A study of Homo sapiens with 10 samples.

Results

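SRF and 9 genes of the actin cytoskeleton that it controls with its MRTF cofactors were followed in hTERT RPE-1 cells treated with merbarone. The members, chosen by name and with earlier results of these data known, were SRF, the actins ACTB, ACTG1 and ACTA2, and VCL, TAGLN, MYL9, CNN1, TPM1 and FLNA. All 10 were found by Ensembl identifier among the 20327 genes of each deposited table. hTERT RPE-1 is a telomerase-immortalised line from human retinal pigment epithelium, and merbarone inhibits topoisomerase II without trapping it on DNA. All 10 libraries came from wild-type cells held in 0.1% serum for 48 h. In the 30 min experiment, merbarone at 200 µM for 30 min was set against DMSO for 30 min, with 3 libraries each. In the 2 h experiment, merbarone at 200 µM for 2 h was set against untreated cells, with 2 libraries each, so this control had no vehicle. The labels do not say whether replicates were separate cultures, so p-values measure the spread between these libraries, which may be technical.

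Serum response factor binds a short DNA element, the CArG box, and its activity depends on the cofactor it meets. The MRTF cofactors bind monomeric actin, which keeps them out of action. Assembly of actin into filaments frees the MRTFs and lets them join SRF on genes for actins, actin-binding proteins and contractile proteins, and on SRF itself. Serum is a classic trigger of this route, and all cells here were kept in low serum.

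The CArG boxes of the members are shown as background. SRF, which fell at 2 h, FLNA, which rose, and ACTG1, which did not pass, all hold one near the start. The members were chosen as targets of SRF, so a box in them is no result of these data. The part of the boxes in the changes was not tested. The element was searched as CC, then 6 bases that are each A or T, then GG, which reads alike on both strands. Promoters ran from 250 bases before to 50 bases after each start in a RefSeq table (build GRCh38.p14), where 7 of the 10 members matched. ACTB, TAGLN and MYL9 had no entry. An exact match was found for SRF, with 2 boxes, and for ACTG1 and FLNA, with 1 each, beside 1.30% of 34943 promoters in the table. With up to 1 mismatch, 18.9% of promoters held a match, and 1 of the 2 ACTA2 entries held 2. No match of either kind was found for VCL, TPM1 and CNN1 in this window. Each stretch below runs 5′ to 3′ on the gene's strand and lies before the start, with the element in capitals; the ACTA2 elements have 1 mismatch each.
SRF, chr6:43171219-43171268, plus strand: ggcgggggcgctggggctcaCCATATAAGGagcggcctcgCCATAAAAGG
ACTG1, chr17:81512864-81512913, minus strand: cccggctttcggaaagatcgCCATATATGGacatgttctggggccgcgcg
FLNA, chrX:154374699-154374748, minus strand: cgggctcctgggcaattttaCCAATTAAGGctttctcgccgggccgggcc
ACTA2, chr10:88952815-88952914, minus strand: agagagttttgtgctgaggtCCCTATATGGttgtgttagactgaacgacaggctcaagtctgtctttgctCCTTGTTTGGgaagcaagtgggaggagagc

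The deposited values were RPKM, reads scaled by gene length and library size. Read totals recovered from the steps of the values were 26633780 to 38225538 in the 30 min experiment and 11956652 to 13691014 in the 2 h experiment. At 30 min, replicate 1 stood apart in both groups, with a chi-square per degree of freedom of 53.0 to 63.3 against replicates 2 and 3, which differed from each other by 15.8 to 22.5. Replicates of the 2 h experiment differed by 4.13 to 10.1. This measure depends on depth, which was lower there, so it does not rank the experiments. Pearson correlations of replicates on the log2 scale were 0.996 and 0.998 there, and 0.992 to 0.998 at 30 min. The pigment epithelium markers were present in part: 5 of 9, BEST1, OTX2, PMEL, KRT8 and KRT18, averaged at least 1 RPKM in every group. RPE65, RLBP1 and TYR were near 0. BEST1 overlaps FTH1, PMEL overlaps CDK2, and KRT8 and KRT18 overlap each other. The summed level of the 9 was 26.2 to 33.3 RPKM in the 30 min experiment and 90.0 to 105 RPKM in the 2 h experiment. Much of it was KRT18, which averaged 17.0 RPKM in DMSO and 59.5 RPKM in untreated cells. BEST1 averaged 2.58 and 18.8 RPKM in these groups. Of 8 smooth and striated muscle markers, 2 averaged at least 1 RPKM in each group, and KRT5 and PTPRC, of keratinocytes and leukocytes, were at or near 0. The neuronal marker TUBB3, however, held 8.42 to 19.1 RPKM over the 10 libraries, and MAP2 held 0.0887 to 0.147 RPKM from 329 to 1743 reads.

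The members ranged widely in level, from ACTG1, the highest of them, to CNN1, which was barely detected. Together they took 1.24% to 1.63% of the reads in the 30 min experiment and 2.13% to 2.53% in the 2 h experiment. The authors' gene lengths include introns, so levels of different genes were compared as recovered reads scaled by library size and by the length of the canonical transcript in place of the authors' length, in the same unit. On that scale ACTG1, a cytoplasmic actin, was highest in untreated cells at 3337 ± 329 (SD, n = 2), and ACTB, the other cytoplasmic actin, followed at 2860 ± 184. TPM1 was next at 1424 ± 90.2, then ACTA2 at 952 ± 171. MYL9 at 574 ± 94.9 and TAGLN at 511 ± 93.6 overlapped, and FLNA, VCL, SRF and CNN1 followed at 362, 260, 29.9 and 1.86. In DMSO the order was ACTG1, ACTB, TPM1, FLNA, VCL, TAGLN, MYL9, ACTA2, SRF and CNN1, from 1582 ± 218 down to 1.31 ± 0.474 (SD, n = 3). ACTB and TPM1 overlapped there. ACTA2, the smooth muscle actin, measured 139 ± 21.0 in DMSO. The experiments were not compared by a test for these levels, since time, control and experiment differ together.

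After 30 min of merbarone, none of the members that could be tested passed the threshold. CNN1 averaged under 1 RPKM and was not tested. Of the other 9, limma called 0 at an adjusted p under 0.05, 0 had an unadjusted p under 0.05 and voom on recovered reads called 0. Of all 6500 genes, 0.0154% were called and 0.369% had an unadjusted p under 0.05. A fit with the replicate number as a block called 0.123% of genes and still no member. Log2 fold changes of these 9, on the scale of log2(RPKM + 1), ran from -0.08 for ACTB to 0.11 for ACTA2. Treated and control libraries overlapped for all 9, where 2.28% of genes had groups apart, and each adjusted p was 1.00. After 2 h, limma called 2 of the 9 tested, SRF lower and FLNA higher, where 13.1% of 6620 genes were called. The count of members was 4 without untreated replicate 1 and 0 without either merbarone library. Unadjusted p was under 0.05 for 3 of the 9 and for 31.3% of genes, and 4 of the 9 had groups apart, as had 61.5% of genes. The median change of the 9 was 0.03, beside -0.05 for all genes. The plot of fold changes with confidence intervals shows both comparisons for each member.

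**Figure D1:**
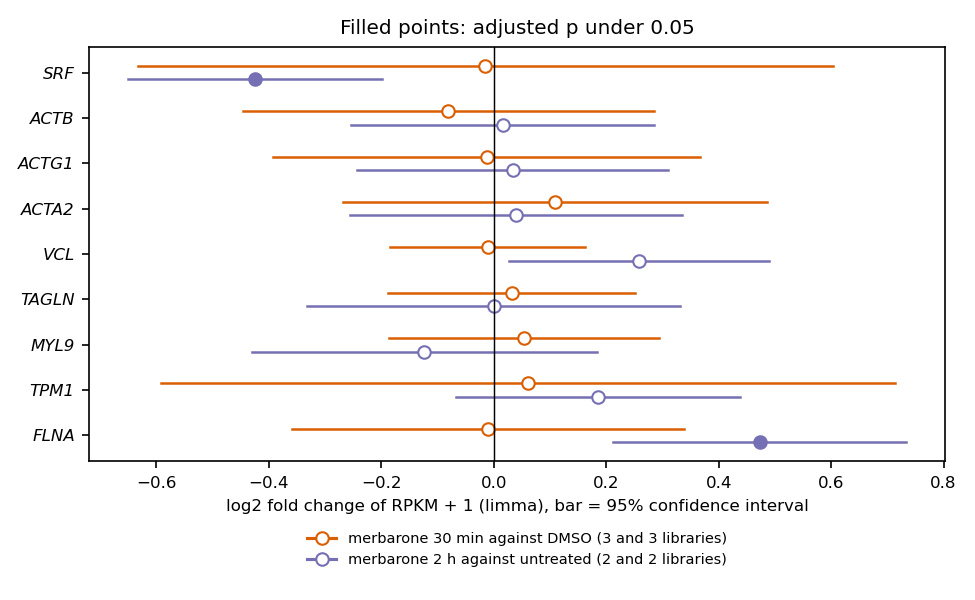
Log2 fold change of RPKM + 1 for the 9 tested members, with 95% confidence intervals from limma, for 30 min (orange) and 2 h (purple). Filled points have an adjusted p under 0.05: SRF at -0.42 and FLNA at 0.47, both at 2 h.

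SRF (ENSG00000112658; GRCh37 chromosome 6, 43139007 to 43149244, plus strand) fell at 2 h. It measured 11.6 and 13.1 RPKM in untreated cells and 8.99 and 8.92 RPKM after 2 h of merbarone, from 1188 to 1603 reads a library. Both treated libraries were below both controls, as in 39.0% of the genes tested. The mean was 0.723 times that of untreated cells, and limma gave a log2 change of -0.42 ± 0.10 (SE; adjusted p 0.0266). At 30 min the DMSO libraries held 13.6, 8.55 and 7.72 RPKM and the merbarone libraries 13.3, 8.05 and 8.11 RPKM. The high value in each group was replicate 1, and the same-numbered libraries differed by -0.03, -0.08 and 0.06 on the log2 scale. The 30 min log2 fold change was -0.02, with a 95% interval of -0.63 to 0.60 in the fit without pairing. That interval carries the spread of replicate 1, which the same-numbered differences do not. The 2 h call was lost without merbarone replicate 1 (adjusted p 0.187) or replicate 2 (adjusted p 0.178), where the lone treated library is assumed to vary like the others. It was also lost when every gene with a read was tested (adjusted p 0.120). In the same comparison the pigment epithelium marker OTX2, named here with its values known, fell from 4.35 and 4.61 to 3.33 and 3.43 RPKM (limma log2 change -0.32, adjusted p 0.0349). The other 4 tested markers of that list were not called. KRT18 and KRT8 differed by 0.17 and 0.13 in log2, and BEST1 and PMEL by -0.02 and -0.08. The part of OTX2 in the SRF result was not tested.

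**Figure D2:**
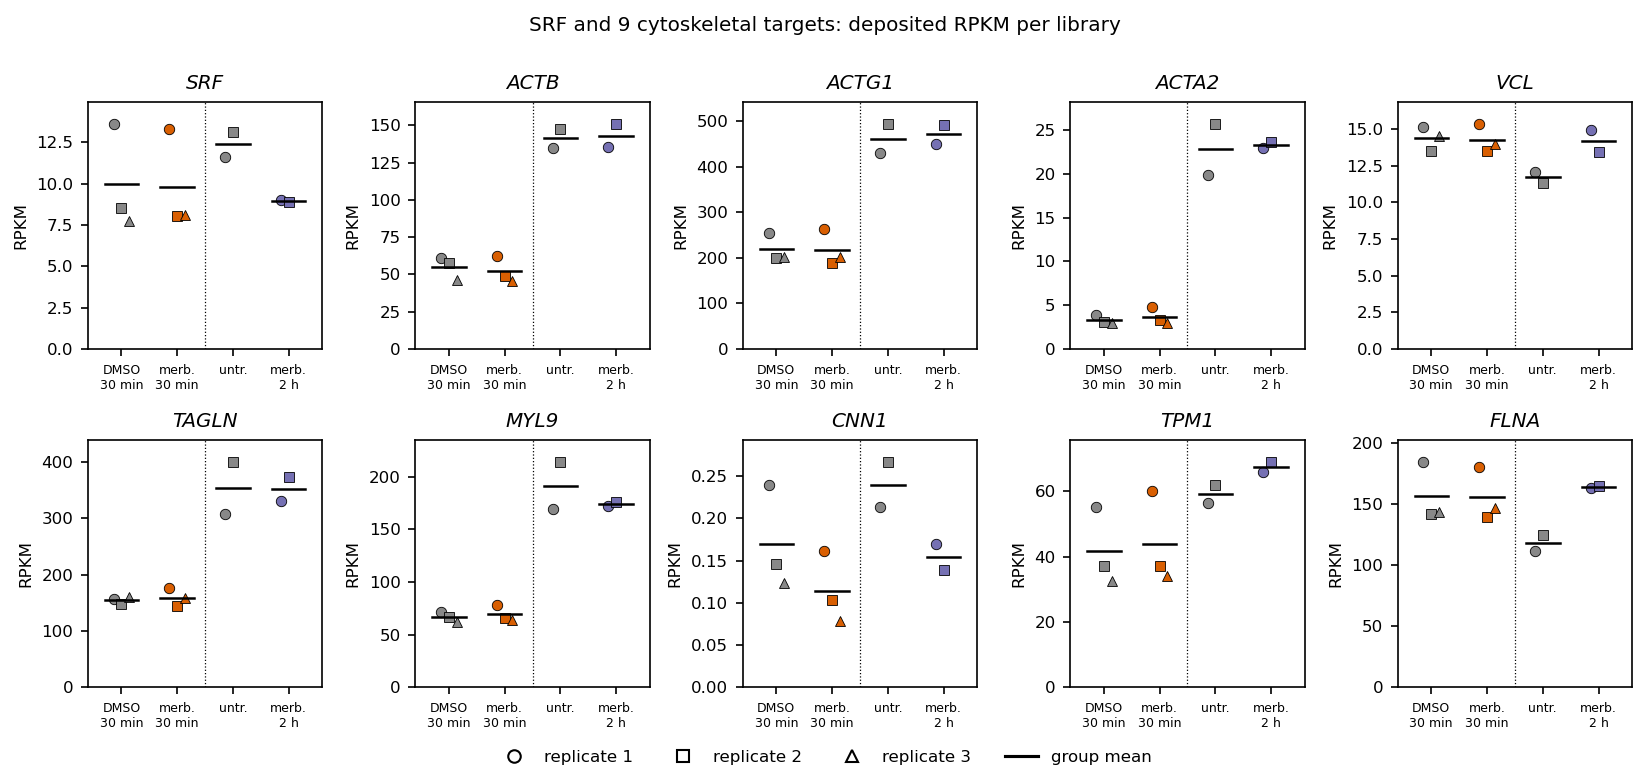
Deposited RPKM of SRF and its 9 targets in each library, by group (merb., merbarone; untr., untreated), with symbols for the replicate number and bars for the group mean; each panel has its own linear axis from 0. SRF is lower in both 2 h merbarone libraries (8.99 and 8.92 RPKM) than in both untreated ones, and FLNA is higher. Replicate 1 is the highest library in both 30 min groups for every member except TAGLN, whose highest DMSO library is replicate 3.

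The actins did not change beyond the spread of their libraries in either experiment. ACTB (ENSG00000075624; chromosome 7, 5566040 to 5603533, minus strand) held 135 and 148 RPKM in untreated cells and 135 and 151 RPKM after 2 h. ACTG1 (ENSG00000184009; chromosome 17, 79476439 to 79490873, minus strand) held 429 and 493 RPKM untreated and 451 and 492 RPKM treated. ACTA2 (ENSG00000107796; chromosome 10, 90694831 to 90751096, minus strand) held 19.9 and 25.7 RPKM untreated and 22.9 and 23.6 RPKM treated. Treated and control libraries overlapped for all 3 genes. For ACTG1 and ACTA2 both treated libraries lay between the controls, while for ACTB merbarone replicate 2, at 151 RPKM, lay above both controls. In limma the 2 h log2 fold changes were 0.02 for ACTB, 0.03 for ACTG1 and 0.04 for ACTA2, with 95% intervals of -0.25 to 0.29, -0.24 to 0.31 and -0.26 to 0.33. A change of the size seen for FLNA, 0.47, lies outside these intervals. At 30 min ACTB measured 55.1 ± 7.66 RPKM in DMSO and 52.1 ± 8.78 RPKM in merbarone (SD, n = 3). ACTG1 measured 219 ± 30.2 and 218 ± 39.7 RPKM. ACTA2 measured 3.33 ± 0.502 and 3.71 ± 0.964 RPKM; its merbarone library was higher in 3 of 3 same-numbered pairs, by 0.24, 0.08 and 0.005 on the log2 scale, and was not called with the replicate number as a block.

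A part of the actin reads may be hard to assign. Of the 50-base windows of the canonical ACTB transcript, 12.1% occur exactly in transcripts of 23 other genes, the pseudogene ACTBP2 first, and 5.56% of those of ACTG1 occur in 12 others. No ACTA2 window does, but its span overlaps FAS and STAMBPL1. How the authors treated such reads, and whether they counted by strand, is not given in the sources used here.

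The proteins that tie actin filaments to adhesions and to each other held the 1 member that rose at 2 h. FLNA (ENSG00000196924; chromosome X, 153576892 to 153603002, minus strand) encodes filamin A, which crosslinks actin filaments and links them to membrane proteins. It held 112 and 124 RPKM in untreated cells and 163 and 165 RPKM after 2 h, from 38820 to 58312 reads a library. Both treated libraries lay above both controls, as in 22.5% of genes tested. The mean was 1.39 times the untreated mean, and limma gave a log2 change of 0.47 ± 0.11 (SE; adjusted p 0.0297). Like that of SRF, the call was lost without merbarone replicate 1 (adjusted p 0.227) or replicate 2 (0.210) and with every gene tested (0.132). At 30 min FLNA measured 157 ± 23.8 RPKM in DMSO and 155 ± 22.0 RPKM in merbarone (SD, n = 3).

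VCL (ENSG00000035403; chromosome 10, 75754951 to 75881121, plus strand) encodes vinculin, which couples integrin adhesions to actin. It held 12.1 and 11.3 RPKM untreated and 14.9 and 13.5 RPKM after 2 h. The treated libraries lay above the controls, as in 22.5% of genes tested. The change in limma, 0.26 ± 0.10 (SE) in log2, missed the threshold (adjusted p 0.125). The log2 change of VCL was 0.30 and 0.22 without untreated replicate 1 and 2, where 1 control library was left. After removal of each library's trend with GC content, VCL passed (limma, adjusted p 0.0406). In that fit 1971 of 6473 genes were called. At 30 min VCL measured 14.4 ± 0.828 and 14.3 ± 0.948 RPKM (SD, n = 3), and the 95% interval of the log2 change was -0.18 to 0.16. VCL overlaps AP3M1.

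The contractile and filament-stabilising members did not pass in either experiment. TPM1 (ENSG00000140416; chromosome 15, 63334819 to 63364114, plus strand), a tropomyosin that lies along actin filaments, held 56.5 and 61.8 RPKM untreated and 65.8 and 68.9 RPKM after 2 h. Both treated libraries lay above both controls, as in 22.5% of genes tested, and limma gave 0.19 ± 0.11 (SE) in log2 (adjusted p 0.289). At 30 min its libraries held 55.1, 37.3 and 32.7 RPKM in DMSO and 60.2, 37.1 and 34.2 RPKM in merbarone, with replicate 1 high in both.

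TAGLN (ENSG00000149591; chromosome 11, 117070086 to 117078180, plus strand) encodes transgelin, an actin-binding protein of smooth muscle and mesenchymal cells. It held 308 and 400 RPKM untreated and 330 and 373 RPKM after 2 h. The treated libraries lay between the controls, and the log2 fold change of -0.0004 had a 95% interval of -0.33 to 0.33. The annotation places PCSK7 over it, and 65.5% of its 50-base windows also belong to a transcript of ENSG00000280143. MYL9 (ENSG00000101335; chromosome 20, 35169900 to 35179850, plus strand), a regulatory light chain of non-muscle and smooth muscle myosin, held 169 and 214 RPKM untreated and 173 and 176 RPKM treated. In limma it differed by -0.12 ± 0.14 (SE) in log2 (adjusted p 0.567). The log2 change of MYL9 was -0.29 without untreated replicate 1, the lower of its controls, and 0.045 without untreated replicate 2. Each of these fits leaves 1 control library. At 30 min TAGLN measured 155 ± 5.76 and 159 ± 15.9 RPKM and MYL9 66.7 ± 4.92 and 69.3 ± 7.41 RPKM in DMSO and merbarone (SD, n = 3).

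CNN1 (ENSG00000130176; chromosome 19, 11649582 to 11661138, plus strand), calponin of smooth muscle, was barely detected. It held 0.124 to 0.239 RPKM in DMSO and 0.0787 to 0.161 RPKM in merbarone at 30 min. In the 2 h experiment it held 0.213 and 0.266 RPKM untreated and 0.170 and 0.139 RPKM treated, with 21 to 74 reads a library over both experiments. Both treated libraries at 2 h were below both controls, as in 39.0% of the genes tested, which do not include CNN1.

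A wider list of 30 genes for actin-binding, adhesion and myosin proteins gave the same 30 min picture, with 0 of 29 tested called in limma, 0 at an unadjusted p under 0.05 and 0 by voom. Of all genes, 0.0154% were called there and 0.369% had an unadjusted p under 0.05. The median log2 fold change of the list was 0.01, beside -0.01 for all genes. At 2 h, 6 were called higher and 1 lower of 29, beside 5.98% and 7.10% of all genes, and the median was 0.08 beside -0.05. MYH9, the heavy chain of non-muscle myosin IIA, had the largest change: 19.3 and 20.3 RPKM untreated and 33.0 and 32.8 RPKM treated, or 0.71 ± 0.10 (SE) in log2 (adjusted p 0.00329). TLN1, talin, which activates integrins and binds vinculin, held 19.2 and 20.2 RPKM untreated and 30.6 and 28.3 RPKM treated (0.56 ± 0.10, adjusted p 0.0112). FLNC, filamin C, held 7.47 and 7.39 RPKM untreated and 10.5 and 11.5 RPKM treated (0.51 ± 0.09, adjusted p 0.0108). MYL6, the essential light chain of non-muscle myosin, fell from 238 and 289 to 171 and 202 RPKM (-0.49 ± 0.14, adjusted p 0.0497); it overlaps MYL6B and SMARCC2, and did not pass under median scaling (adjusted p 0.0525). ACTN1 and PDLIM5, which are named here with their values known, were also called higher, by 0.48 and 0.29. Without merbarone replicate 1, calls were lost for TLN1 (adjusted p 0.130), MYL6 (0.431), ACTN1 (0.0677) and PDLIM5 (0.421). Without merbarone replicate 2 they were lost for FLNC (0.111), MYL6 (0.0613), ACTN1 (0.0921) and PDLIM5 (0.0678). With every gene tested, none of the list passed, MYH9 included (0.0692). The split was 8 higher and 6 lower without untreated replicate 1, 9 and 2 without untreated replicate 2, and 3 and 0 without either merbarone replicate. With the GC trend removed it was 10 and 5. Among all genes called, 45.7% were higher, and 63.1% and 57.8% were without merbarone replicate 1 and 2.

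Transcript length moved with the 2 h changes. Across 6473 genes with a length, the Spearman correlation of the 2 h log2 fold change with canonical transcript length was 0.34 and the Pearson correlation with its logarithm 0.23; genes are not independent replicates. The median change was -0.14 for 2019 transcripts of up to 2000 bases and 0.04 for 723 of over 6000 bases. Among the members and listed genes shown, the 6 called higher had transcripts of 3722 to 9159 bases, that of FLNA being 8507, and the 2 called lower were SRF at 4231 and MYL6 at 708. After each library's trend with length was removed, SRF changed by -0.46 (adjusted p 0.0149) and FLNA by 0.39 (adjusted p 0.0406), so both passed. MYL6 at -0.34 (adjusted p 0.0645) and PDLIM5 at 0.22 (adjusted p 0.0579) no longer passed.

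**Figure D3:**
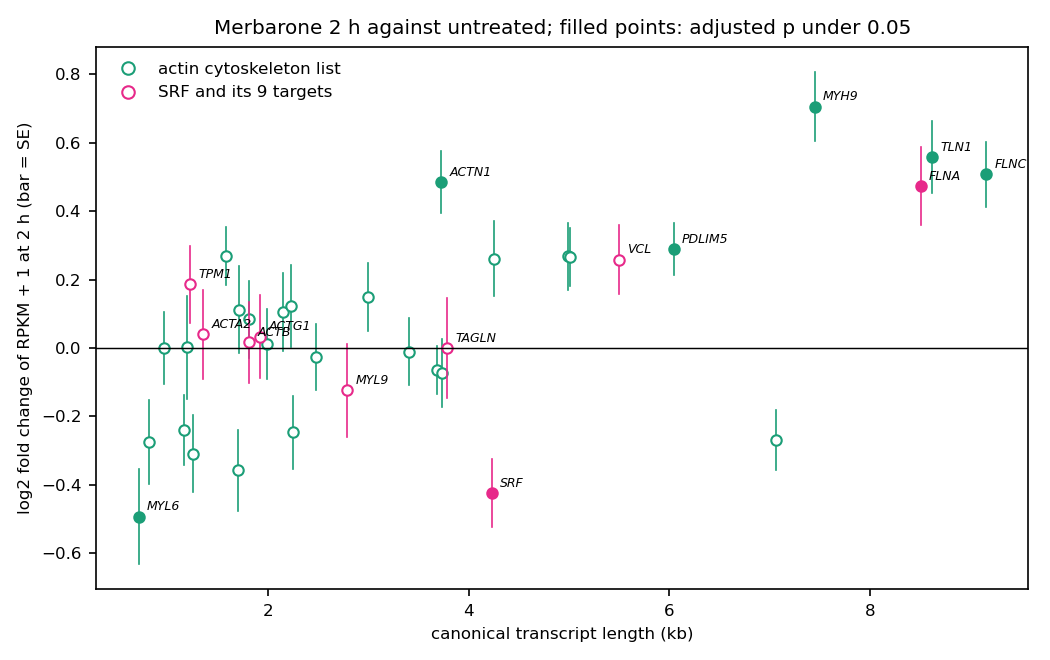
Log2 fold change of RPKM + 1 at 2 h (bar, SE) against canonical transcript length in kilobases, for the 9 tested members (pink) and 28 tested genes of the actin cytoskeleton list (green), with filled points for an adjusted p under 0.05. The genes called higher have transcripts of 3722 bases or more, and the fall of MYL6 is at 708 bases.

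Among genes for SRF cofactors and regulators of actin assembly, RHOB rose. Of 13 such genes, 6 reached 1 RPKM, and limma called 0 of them at 30 min, with 0 at an unadjusted p under 0.05 and 0 by voom. Of all genes, 0.0154% were called there and 0.369% had an unadjusted p under 0.05. At 2 h limma called 1 of the 6, where 13.1% of all genes tested were called. That 1 was RHOB, a small GTPase of endosomes and membranes encoded by a short-lived RNA. RHOB held 86.1 and 90.3 RPKM untreated and 401 and 361 RPKM after 2 h. Both treated libraries lay above both controls, as in 22.5% of genes tested. In log2 RHOB rose by 2.10 ± 0.12 (SE, adjusted p 1.54e-05 in limma). At 30 min RHOB measured 65.1 ± 18.0 RPKM in DMSO and 72.3 ± 15.2 RPKM in merbarone (SD, n = 3). RHOA held 17.0 and 17.1 RPKM untreated and 15.2 and 15.6 RPKM treated at 2 h, and RHOC held 67.1 and 79.1 and then 55.5 and 59.8 RPKM, without passing (adjusted p 0.357 and 0.107). LIMK2, a kinase that inactivates cofilin, differed by 0.31 in log2 (adjusted p 0.0524). These 3 were named after their values were seen. The cofactor genes MRTFA and MRTFB span 226439 and 195455 bases and were below the limit by the authors' lengths, at 0.220 to 0.286 and 0.180 to 0.257 RPKM. The reads behind these values numbered 674 to 1984 for MRTFA and 421 to 1924 for MRTFB. MYOCD, the muscle-restricted cofactor, was at or near 0 in every library.

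The effects of the experiments were compared directly by a contrast over all 10 libraries, in which time, kind of control and experiment cannot be told apart. Of the 9 tested members, limma called 0, 2 had an unadjusted p under 0.05 and voom called 0, where 1.63% of 6558 genes were called and 16.1% had an unadjusted p under 0.05. The 2 h change minus the 30 min change was -0.41 ± 0.34 (SE) for SRF and 0.48 ± 0.20 for FLNA, with adjusted p-values of 0.617 and 0.289, and 0.27 ± 0.12 for VCL with 0.307. The replicate 1 libraries bear on this. Same-numbered libraries of the 30 min experiment moved together around the means of their groups: the correlations were 0.925, 0.646 and 0.605. With the replicate number as a block in that experiment, the difference passed for SRF (adjusted p 0.0311) and FLNA (0.0233) and not for VCL (0.103), where 10.1% of genes were called. With the block in both experiments it also passed for VCL (0.0325), where 19.1% of genes were called. Without both replicate 1 libraries the differences were -0.42 for SRF and 0.47 for FLNA, with adjusted p-values of 0.134 and 0.113.

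The genes whose pattern over the 10 libraries was most like that of SRF were found by the root mean square difference in log2(RPKM + 1), after subtraction of the control mean of the same experiment. They were AJUBA, TXNRD1, MT-CO1 and MEST, at 0.0787, 0.0793, 0.0846 and 0.115, where the median of 6158 genes was 0.323. AJUBA, a LIM protein of cell junctions, held 15.1, 10.3 and 9.36 RPKM in DMSO and 13.5, 9.80 and 9.62 RPKM after 30 min of merbarone. In the 2 h experiment it held 17.0 and 19.4 RPKM untreated and 14.3 and 13.96 RPKM treated. TXNRD1, thioredoxin reductase, went from 6.29 and 5.91 RPKM untreated to 4.25 and 4.36 RPKM at 2 h. All 4 were high in replicate 1 of both 30 min groups and lower at 2 h, which is the pattern they were chosen for. The 2 h adjusted p was 0.0156 for TXNRD1, while AJUBA (0.0674), MT-CO1 (0.0616) and MEST (0.0931) did not pass.

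**Figure D4:**
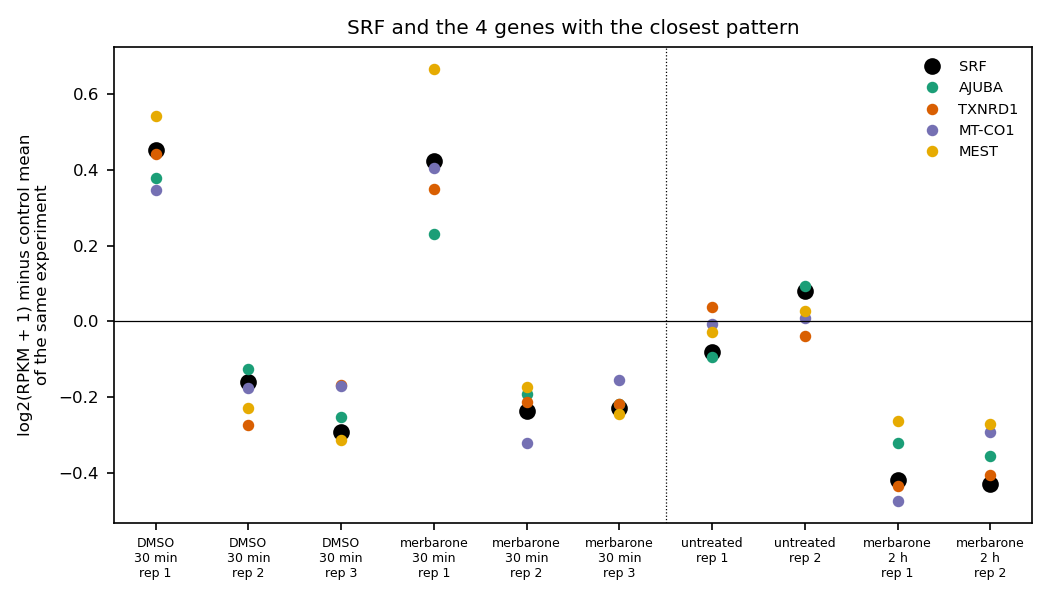
Log2(RPKM + 1) minus the control mean of the same experiment in each of the 10 libraries, for SRF (large black points) and the 4 genes with the smallest root mean square difference from it (0.0787 to 0.115). All are highest in replicate 1 of both 30 min groups and lie below 0 in both 2 h merbarone libraries.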

How the data were processed

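Polyadenylated RNA from 10 libraries was sequenced after TruSeq Stranded mRNA preparation from 150 ng of total RNA, per the labels. The authors deposited 1 table per library with RPKM per Ensembl gene, per the file headers, without a log. The submitters' processing notes name Bowtie 1.2.0, DESeq2, edgeR, deepTools 2.4.1 and the builds hg19 and GRCh37, without roles; the read counter, annotation and strand setting are not given in the sources used here.

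Coordinates, canonical transcripts and overlaps are from a GENCODE annotation on GRCh37; promoters are from RefSeq on GRCh38.p14. Whole reads were recovered from the steps of the RPKM values for 100.0% of 17680 genes with a value (tolerance 0.001 reads); on simulated data 99.6% of 8000 genes came out exact. The lengths implied lay within 1% of the genomic span for 74.9% of 17234 genes, so most RPKM values are per kilobase of the gene with introns. A rise of abundant genes lowers the RPKM of others.

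Tests used limma 3.58.1 (R 4.3.3; lmFit, eBayes with trend) on log2(RPKM + 1), which understates changes of low genes, for genes whose mean reached 1 RPKM, two-sided, with Benjamini-Hochberg adjustment over all genes and a threshold of 0.05. Each experiment was fitted alone, and the difference over all libraries. Fits were tested on simulated data. Intervals are unadjusted. The members and lists were chosen with earlier results of these data known. The rule named all members, up to 4 called genes of each list with the largest change, and the 4 genes most like SRF; ACTN1, PDLIM5, RHOA, RHOC, LIMK2, MRTFA, MRTFB, MYOCD and markers are named outside it, with values known; 1 gene of the actin cytoskeleton list is counted but not reported here. Alternatives were a pseudocount of 0.1, no filter, median scaling, the replicate block, voom on recovered reads and leaving out each library. Added after seeing the data were removal of the trend with transcript length or GC content, a block at 30 min only, and leaving out both replicate 1 libraries. The block at 30 min rests on the correlations given in the results. Tables were joined in Python 3.11.15 (pandas 2.3.3) and figures drawn in matplotlib 3.10.9.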

Additional observations from a re-analysis of the deposited data

Results flagged for a closer look

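The effect of merbarone on RHOB differed between the experiments by the contrast in limma, which is why it is listed here. The 2 h change exceeded the 30 min change by 1.93 ± 0.31 (SE) on the log2 scale, with an adjusted p of 0.0170. It was 6.99e-05 with the replicate block at 30 min only, and 0.0660 to 0.101 when any 1 of the 4 libraries of the 2 h experiment was removed. RHOB was chosen with its list and is the 1 gene of the members, the actin cytoskeleton list and the list of SRF cofactors and regulators for which this difference passed in that fit. Time, kind of control and experiment cannot be told apart in it.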

How the results depend on the processing

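SRF had at least 1188 reads in each library. Genes called at 30 min (1) numbered 0 with no filter, 2 under median scaling and 8 with the replicate block. At 2 h (866) they numbered 53 with no filter, 2129 with the block and 1971 with the GC trend removed; for the difference (107), 361, 1255 and 182, with 58 by voom and 665 with the block at 30 min only. Members called at 2 h (2) numbered 0 with no filter; for the difference (0), 3 with the block and 2 with the block at 30 min only. The actin cytoskeleton list at 2 h (7) gave 0 with no filter, 15 with the block (10 higher, 5 lower), 12 by voom and 15 with the GC trend removed. Of all genes called at 2 h, 45.7% were higher, 52.4% under median scaling and 37.6% with the GC trend removed; for the difference, 77.6%, 83.6% and 59.3%. The actin list for the difference (0) gave 14 with the block, 7 with the block at 30 min only and 1 without both replicate 1 libraries. SRF cofactors and regulators at 2 h (1) gave 2 under median scaling, 3 with the block, 2 by voom and 3 with the GC trend removed, and for the difference (1) 3 with the block.

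Same-numbered libraries at 2 h correlated at 0.30 and share only a number, so the block there is no established pairing; with it VCL passed at 2 h (adjusted p 0.0338). Small changes turned sign: at 30 min SRF was 0.0062 with the GC trend removed, FLNA 0.00041 under median scaling and 0.015 with the GC trend removed, and TAGLN -0.029 without both replicate 1 libraries (difference 0.028). TAGLN at 2 h was 0.020 under median scaling, 0.017 by voom and 0.021 with the GC trend removed. The cause was not tested.

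Leaving out each library gave 0 to 2 genes called at 30 min, 328 to 2464 at 2 h and 38 to 86 for the difference. At 2 h it gave 0 to 4 members, 3 to 14 of the actin list and 1 to 2 of the SRF cofactors and regulators, which for the difference gave 0 to 1. At 2 h, 2464 and 1311 genes were called without untreated replicate 1 and 2, and 328 and 398 without merbarone replicate 1 and 2. Members whose sign turned at 30 min ranged from -0.23 to 0.21 for SRF, -0.21 to 0.0076 for ACTB, -0.15 to 0.098 for ACTG1, -0.051 to 0.22 for ACTA2, -0.060 to 0.027 for VCL, -0.040 to 0.10 for TAGLN, -0.031 to 0.11 for MYL9, -0.19 to 0.28 for TPM1 and -0.12 to 0.11 for FLNA. At 2 h they ranged from -0.062 to 0.094 for ACTB, -0.067 to 0.13 for ACTG1, -0.14 to 0.22 for ACTA2, -0.19 to 0.19 for TAGLN and -0.29 to 0.045 for MYL9. For the difference they were -0.065 to 0.19 for ACTG1, -0.25 to 0.11 for ACTA2, -0.22 to 0.15 for TAGLN and -0.090 to 0.37 for TPM1. SRF at 2 h stayed between -0.50 and -0.34 and FLNA between 0.40 and 0.55. Of 503 comparisons with the main values, 418 kept direction and side of the threshold, 29 lost the call, 9 gained it and 47 turned sign, counts of calls not included.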
